A study of Mus musculus with 16 samples.

Results

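DNA break ends after 10 Gy of gamma rays were set against those of unirradiated cells in AB22, a mouse line of malignant mesothelioma, which arises from the membrane that covers lung and gut. The libraries were taken by their titles: 2 of shCTRL cells at 10 Gy and 2 of shCTRL cells left untreated (0 Gy), 4 of the 16 libraries in the series. Cells of both groups had been transduced with the inducible vector pTRIPZ carrying a control hairpin, selected with puromycin and grown with doxycycline for 7 to 10 days. They were synchronised in G1, and the 10 Gy group was exposed to a caesium-137 source. Both groups came from 1 tumour line, so they stand for that line under the vector and the drug and not for unmodified cells. The study's design names each pair of libraries as biological replicates and does not say how their cultures were separated. The p-values therefore cover only the spread between these samples, which may be technical.

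The assay, BLISS, ligates an adapter to free DNA ends inside fixed cells and reads outward from the adapter, so that every read marks the end of a break. Ionising radiation breaks DNA along the tracks of the particles it sets free and through radicals made in the water around the chromatin, at places spread over the genome. Cells also carry breaks without irradiation, at transcribed genes and repeats among other places, and in G1 they rejoin breaks mainly by end joining without a template. The study's title names the question of whether nucleosomes shield DNA from such breaks in living cells. These libraries give the part of that question that concerns irradiation of cells with the control hairpin.

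Among the 4 libraries compared, those of irradiated cells held more ends than those of unirradiated cells. On the main chromosomes, the 10 Gy libraries held 858494 ends in replicate 1 and 845903 in replicate 2, and the 0 Gy libraries 485043 and 392139. The groups did not overlap, and the 10 Gy library held 1.77 times as many ends in replicate 1 and 2.16 times as many in replicate 2. The means were 852198 ± 8903 ends at 10 Gy and 438591 ± 65693 at 0 Gy (SD, n = 2 each), a ratio of geometric means of 1.95 and a log2 difference of 0.97. The exact two-sided permutation p was 0.333, the smallest that 2 libraries against 2 allow, and none of the single values below could go under it. Totals also depend on the number of cells used and on sequencing, and in such bulk libraries fewer cells and fewer breaks per cell cannot be told apart. Other shCTRL libraries held 927413 and 131430 ends at 3 Gy and 480565 and 524957 at 5 Gy, so the total did not follow dose across the line. Libraries of the shHMGB1 line, with a hairpin against HMGB1, held 1010888 and 826051 ends at 10 Gy and 691644 and 881445 at 0 Gy. There the 10 Gy library held more in replicate 1 and fewer in replicate 2. In the 4 shCTRL libraries compared, mitochondrial DNA took 0.356% and 0.301% of all ends at 10 Gy and 0.369% and 0.217% at 0 Gy.

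The gain was not shared evenly between kinds of position. Satellite-like repeats gained more than the library as a whole, and the ribosomal RNA repeat and single positions at which ends pile up gained less. Ends at scattered positions that were empty in every library of the other groups grew about as much as the total, or somewhat more. These 4 classes were first separated by 32 dense regions, each within 1 kb of a cluster that the authors' lists give at least 1000 ends in any of the 16 libraries. The dense regions cover 0.003% of the genome and held 25.8% and 18.3% of ends at 10 Gy, against 26.7% and 21.5% at 0 Gy.

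Satellite-like repeats lie in 5 dense regions, between 98661228 and 98668287 of chromosome 2 and between 2999063 and 3025592 of chromosome 9 (mm10). Major satellite is the long tandem repeat around mouse centromeres, and the few copies that the assembly places elsewhere collect the reads of many unplaced ones. These regions held 142576 and 94620 ends at 10 Gy, against 62028 and 36347 at 0 Gy. Their ends were 2.30 times as many at 10 Gy in replicate 1 and 2.60 times in replicate 2, above the ratio of the totals in both numbers. Every region did so, with ratios between 2.12 and 2.76. In replicate 2 the region at chr2:98661228-98663955 was practically level with the totals, at 2.159 against 2.157. As a share of a library the 5 regions took 16.6% and 11.2% at 10 Gy and 12.8% and 9.27% at 0 Gy (exact permutation p = 0.667). Shares of the groups overlapped because replicate 1 stood above replicate 2 at both doses.

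Within them Gm10800, annotated as a protein-coding gene at chr2:98666547-98667301, held the most ends of any gene per kilobase. It had 89117 and 58084 ends at 10 Gy, against 38364 and 21890 at 0 Gy. A stretch of 150 bases of its exon is shown because it held 33698 and 22038 of those ends at 10 Gy, against 14620 and 8420 at 0 Gy. It lies at chr2:98667079-98667228 on the minus strand of mm10 and is 62.7% A or T, and capitals mark its 5 positions with the most ends in the 12 libraries not compared here.
Gm10800: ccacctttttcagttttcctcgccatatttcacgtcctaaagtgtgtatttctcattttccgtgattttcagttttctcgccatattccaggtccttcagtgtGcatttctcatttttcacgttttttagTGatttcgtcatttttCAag
At these 5 positions the 10 Gy library held 1.93 to 3.36 times the ends of the 0 Gy library of the same number. The G at base 104 had 1171 and 741 ends at 10 Gy, against 459 and 267 at 0 Gy. The adjacent T and G at bases 131 and 132 had 1187 and 803 ends and 1419 and 1002 ends at 10 Gy, against 615 and 331 and 588 and 439 at 0 Gy. The marked bases are thus no exception to the region around them.

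The ribosomal RNA repeat behaved differently. A fragment of it lies at chr17:39841995-39849347, where the annotation places the noncoding genes Gm26917, Gm42418 and AY036118. This region held 31102 and 16391 ends at 10 Gy, against 30152 and 14018 at 0 Gy, ratios of 1.03 and 1.17. Its share was 3.62% and 1.94% at 10 Gy and 6.22% and 3.57% at 0 Gy (exact permutation p = 0.667), lower at 10 Gy in both numbers. Gm26917 had 18601 and 6170 ends at 10 Gy, against 21416 and 7888 at 0 Gy, so that its ends were fewer even in number (ratios of 0.869 and 0.782).

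Of the remaining dense regions, 13 were led by a single position that held at least 50% of their ends in the other 12 libraries. They had 17306 and 17841 ends at 10 Gy, against 14846 and 15481 at 0 Gy, ratios of 1.17 and 1.15 that lie under those of the totals. One of them, at chr17:36230368-36232416, went the other way in number, with 575 and 80 ends at 10 Gy, against 1251 and 172 at 0 Gy. The last 13 regions were mixed, with ratios from 0.787 to 2.75. A region in Chl1, the gene of a neural cell adhesion molecule, had 1822 and 1983 ends at 10 Gy, against 890 and 744 at 0 Gy. A region of chromosome 3 from 5859337 to 5861803, outside annotated genes, had 4884 and 5124 ends at 10 Gy, against 6209 and 5611 at 0 Gy.

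**Figure D1:**
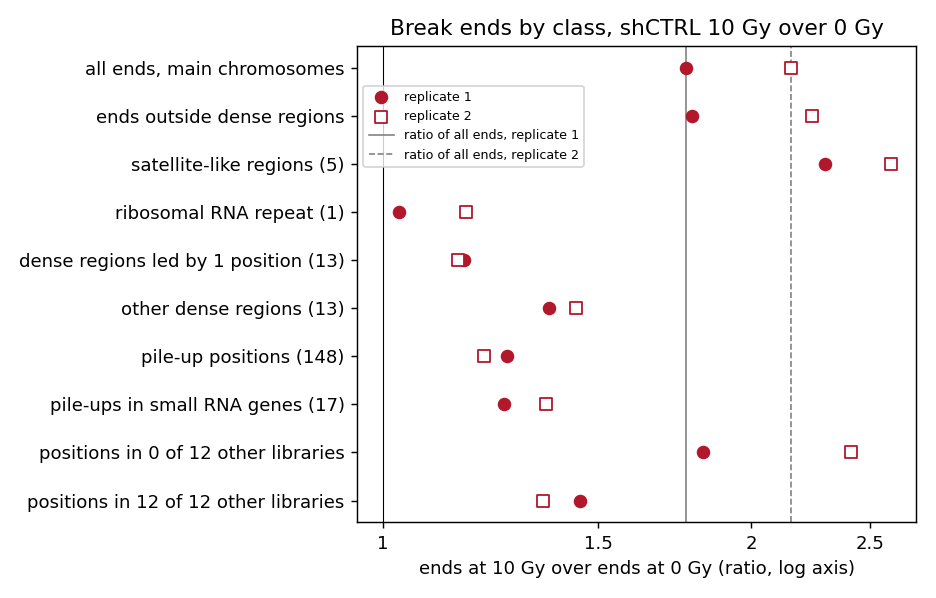
Break ends at 10 Gy divided by break ends at 0 Gy in shCTRL cells, on a log axis, for each class of position and each replicate number (filled circles, replicate 1; open squares, replicate 2). Grey lines mark the ratios of all ends, 1.77 and 2.16. Satellite-like regions lie right of them. The ribosomal RNA repeat, dense regions led by 1 position and pile-up positions lie left of them. Classes share ends, since the pile-up positions include those that lead dense regions. Numbers in brackets count regions or positions.

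Pile-ups were then taken position by position, without these 4 libraries in the choice. Outside the satellite-like and ribosomal RNA regions, 148 positions averaged at least 100 ends over the other 12 libraries. Among them are the leading positions of the 13 dense regions led by 1 position, so the 2 tallies share ends. Some are neighbouring bases of 1 site, as from 58706750 to 58706753 on chromosome 10, and are not separate cases. Together the 148 positions held 40845 and 39167 ends at 10 Gy, against 32331 and 32367 at 0 Gy. That is 1.26 times as many at 10 Gy in replicate 1 and 1.21 times in replicate 2, and 125 of the 148 stood under the ratio of the totals in both numbers. Their share was 4.76% and 4.63% at 10 Gy, against 6.67% and 8.25% at 0 Gy, and the groups did not overlap (exact permutation p = 0.333). Single positions ranged in ratio from 0.296 to 3.52.

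Pile-ups inside Slc36a1, Fam163b and Cdhr2 showed a small gain. In Slc36a1, the gene of a lysosomal amino acid transporter, position 55220251 of chromosome 11 had 3258 and 3109 ends at 10 Gy, against 2808 and 2957 at 0 Gy. In Fam163b, position 27127108 of chromosome 2 had 2648 and 2644 ends at 10 Gy, against 2063 and 2251 at 0 Gy. In Cdhr2, the gene of a protocadherin of the brush border, position 54710935 of chromosome 13 had 846 and 832 ends at 10 Gy, against 702 and 764 at 0 Gy. All 3 had more ends at 10 Gy in each number, with groups that did not overlap, and all 3 gained less than the libraries did. A few positions gained more. In Exoc6b, the gene of a subunit of the exocyst that tethers secretory vesicles, position 84724186 of chromosome 6 had 116 and 122 ends at 10 Gy, against 33 and 43 at 0 Gy. In Trpc7, the gene of a cation channel, position 56890341 of chromosome 13 had 124 and 152 ends at 10 Gy, against 45 and 60 at 0 Gy.

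Small nucleolar RNA genes hold 17 of the 148 positions together with other small RNA genes. Small nucleolar RNAs guide the modification of ribosomal RNA and are cut out of the introns of host genes, many of which encode ribosomal proteins. At these 17 positions the libraries held 3397 and 5903 ends at 10 Gy, against 2701 and 4337 at 0 Gy, ratios of 1.26 and 1.36. All 17 stood under the ratio of the totals in both numbers. The sequences of 5 of the genes are printed to show where in the RNA the ends pile up, in the sense of the transcript from mm10, and the capital marks the base with the most ends in the other 12 libraries.
Snord87: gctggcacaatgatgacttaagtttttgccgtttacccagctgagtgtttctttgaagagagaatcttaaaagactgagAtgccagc
Snord83b: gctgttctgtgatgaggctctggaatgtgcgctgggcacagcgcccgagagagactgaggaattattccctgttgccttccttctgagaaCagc
Snord99: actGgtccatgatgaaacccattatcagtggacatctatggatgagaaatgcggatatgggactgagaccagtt
Snord35a: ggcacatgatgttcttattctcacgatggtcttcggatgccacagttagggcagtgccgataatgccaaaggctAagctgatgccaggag
Snord82: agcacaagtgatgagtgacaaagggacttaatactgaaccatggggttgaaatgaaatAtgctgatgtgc
The marked base is close to an end of the RNA in 3 of them, base 80 of 87 in Snord87, base 91 of 94 in Snord83b and base 4 of 74 in Snord99. In Snord35a it is base 75 of 90 and in Snord82 base 59 of 70.

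The marked base of Snord87, on chromosome 1 in the host gene Snhg6, had 577 and 2003 ends at 10 Gy, against 520 and 1271 at 0 Gy. That of Snord83b, in an intron of Rpl3 on chromosome 15, had 529 and 659 ends at 10 Gy, against 416 and 546 at 0 Gy. Snord87 differed more between replicate numbers than between doses, and Snord83b showed the small gain of most pile-ups. That of Snord99, in Snhg12 on chromosome 4, had 110 and 279 ends at 10 Gy, against 118 and 256 at 0 Gy, which is fewer at 10 Gy in replicate 1. Snord35a, in Rpl13a on chromosome 7, had 100 and 227 ends there at 10 Gy, against 60 and 156 at 0 Gy. Snord82, in the nucleolin gene Ncl on chromosome 1, had 110 and 176 ends there at 10 Gy, against 85 and 125 at 0 Gy. In all 5 the groups overlapped in number of ends, since replicate 2 held more at both doses.

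Over all 1507 annotated small nucleolar RNA genes, the share of ends was 1.63% and 2.36% at 10 Gy, against 2.14% and 3.65% at 0 Gy, from 0.006% of the genome. The difference was -0.897 percentage points (exact permutation p = 0.667), and -0.199 when each position outside dense regions was counted once in libraries of equal size. Spliceosomal snRNA genes took 0.119% and 0.109% at 10 Gy, against 0.151% and 0.155% at 0 Gy, and microRNA genes 0.0548% and 0.0634%, against 0.0715% and 0.0905% at 0 Gy. Both classes were lower in both 10 Gy libraries than in either 0 Gy library. Small Cajal body RNA genes did not share that order, with 0.0785% and 0.0935% at 10 Gy, against 0.0717% and 0.0951% at 0 Gy.

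Scattered positions made up most of both groups. Outside dense regions, positions that had no end in any of the other 12 libraries held 83.7% and 84.9% of ends at 10 Gy, against 82.0% and 78.9% at 0 Gy. These ends were 1.83 and 2.41 times as many at 10 Gy, slightly above the ratios of all ends outside dense regions, 1.79 and 2.24. Positions occupied in all 12 other libraries held 6.22% and 5.62% at 10 Gy, against 7.67% and 9.31% at 0 Gy. Their ends were 1.45 and 1.35 times as many at 10 Gy. Positions occupied in 1 of the 12 had ratios of 1.86 and 1.94, and those in 4 to 11 of them 1.69 and 1.72. The ratio was thus lowest at the positions that recurred most.

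Spacing of the ends was compared in libraries drawn to equal size, 308005 ends outside dense regions. The draw left 0 Gy replicate 2 whole and reduced the 10 Gy libraries from 636662 and 690757 ends. In the drawn libraries, those of irradiated cells repeated positions less. At 10 Gy, 23.6% and 25.2% of ends shared their position with another end of the library, against 38.8% and 40.4% at 0 Gy. These came to 24.4 ± 1.09% at 10 Gy and 39.6 ± 1.10% at 0 Gy (SD, n = 2 each; exact permutation p = 0.333). The same number of ends filled 260889 and 258851 positions at 10 Gy, against 229728 and 224194 at 0 Gy. Positions with 5 or more ends held 6.16% and 5.70% at 10 Gy, against 9.57% and 11.8% at 0 Gy. The groups did not overlap in any of these measures of the drawn libraries. Before the draw, with dense regions included, 858494 and 845903 ends filled 501336 and 525204 positions at 10 Gy. At 0 Gy, 485043 and 392139 ends filled 266752 and 231778 positions.

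Repetition also moved with the size of the library, as the plot against library size shows. The 0 Gy libraries of shCTRL cells are among the smallest. The shCTRL 5 Gy libraries, of similar size, had 32.8% and 34.97% of ends at repeated positions and shCTRL 3 Gy replicate 1, the size of the 10 Gy libraries, had 28.6%. The shHMGB1 libraries, from cells with a hairpin against HMGB1, had 20.1% and 24.5% at 10 Gy and 26.9% and 25.03% at 0 Gy. Their 0 Gy libraries, 535092 and 691967 ends outside dense regions, were larger than those of shCTRL. The part of library size in the difference was not tested. In the 4 libraries compared, the large ones were irradiated and the small ones not, so size cannot be told apart from dose among them.

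**Figure D2:**
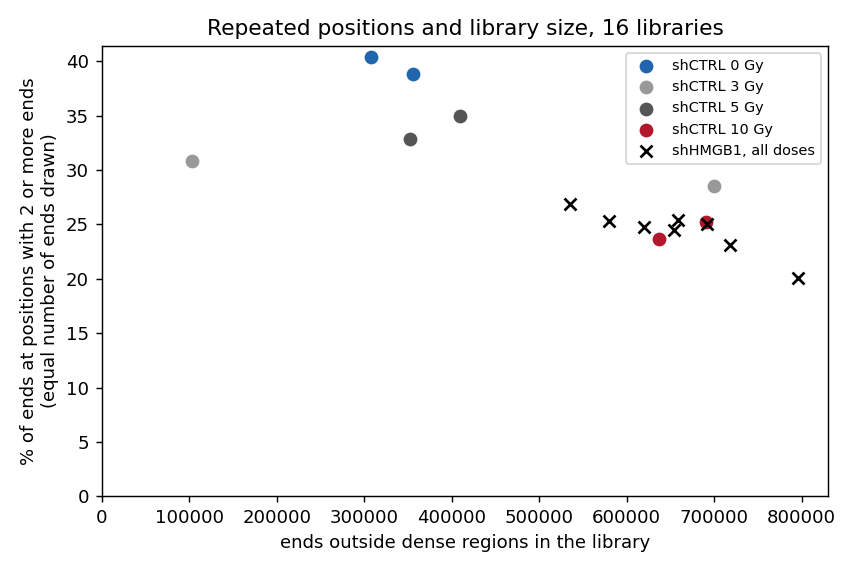
Percent of break ends that share their position with another end (vertical axis) against the number of ends outside dense regions (horizontal axis), 1 point per library for all 16, each drawn to 308005 ends. shCTRL 10 Gy libraries lie at 23.6% and 25.2% and shCTRL 0 Gy libraries at 38.8% and 40.4%; shCTRL 3 Gy replicate 2 is shown at its own 102819 ends, since it holds fewer than the number drawn.

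Neighbouring distinct ends were also less often close. Of the gaps between them, 10.8% and 10.7% were at most 100 bases long at 10 Gy, against 14.7% and 16.4% at 0 Gy. With dense regions included, in libraries of 392139 ends, the difference was -5.05 percentage points (exact permutation p = 0.333). Without drawing libraries to equal size it was -1.20 percentage points. Outside dense regions, the drawn shCTRL 5 Gy libraries had 15.1% and 16.2% of gaps at most 100 bases long. The shHMGB1 libraries had 11.6% and 10.1% at 0 Gy and 9.16% and 10.5% at 10 Gy. The part of library size in this measure was not tested either. Between the shCTRL groups compared, the shortest gaps differed most. Neighbours at adjacent bases numbered 8370 and 7829 at 10 Gy, against 12623 and 13569 at 0 Gy. Gaps of 11 to 100 bases were near equal in number, 11812 and 12486 at 10 Gy, against 12064 and 13334 at 0 Gy. The drawn 10 Gy libraries filled more positions and so held more gaps in all. As a share of gaps, those of 11 to 100 bases were thus lower at 10 Gy in both numbers. Gaps over 100 and up to 1000 bases were higher in number at 10 Gy, with 28602 and 31112, against 21619 and 23761 at 0 Gy. The median gap was 5210 and 4887 bases at 10 Gy and 5580 and 4887 bases at 0 Gy, and did not separate the groups.

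Near gene starts the direction depended on how dense regions and piled-up ends were counted. Taken over all ends, the share within 1 kb of a protein-coding start was 18.4% and 13.3% at 10 Gy and 15.2% and 12.1% at 0 Gy, a difference of +2.25 percentage points (exact permutation p = 0.667). Gm10800, Gm10718 and other repeat copies are annotated as protein-coding, so their ends enter this share. Outside dense regions it was 3.55% and 3.36% at 10 Gy and 4.10% and 4.10% at 0 Gy, a difference of -0.646 percentage points with groups that did not overlap (exact permutation p = 0.333). Starts cover 1.52% of the genome, so both groups held more ends there than an even spread would give. With each position counted once in libraries thinned to 1 size the difference was -0.651 percentage points, with at most 3 ends per position -1.14, and over all ends without the 10 Gy library of replicate 1 -0.285.

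Outside dense regions, the 10 Gy level near starts was lowest against 0 Gy just before the start in replicate 1 (log2 -0.345). In replicate 2 the bin from 500 to 1000 bases into the gene was as low (log2 -0.336, against -0.335 just before the start). From 500 bases upstream to the start, there were 7659 and 7975 CPM, ends scaled to a common library total, at 10 Gy, against 9725 and 10058 at 0 Gy. In the first 500 bases of the gene there were 14219 and 12381 CPM at 10 Gy, against 16443 and 15185 at 0 Gy. The groups did not overlap in either bin, nor in the bin from 500 to 1000 bases, with 10384 and 10157 CPM at 10 Gy, against 11934 and 12818 at 0 Gy. The peak in the first 500 bases was present in all 4 libraries. Farther away the groups overlapped in some bins and not in others. Between 4500 and 5000 bases upstream the values were 7191 and 6775 CPM at 10 Gy and 7469 and 6912 at 0 Gy, with overlap. From 1500 to 2000 bases into the gene there were 10309 and 10338 CPM at 10 Gy, against 11439 and 12925 at 0 Gy, and from 4000 to 4500 bases 7805 and 7739 at 10 Gy, against 8141 and 8532 at 0 Gy, both without overlap.

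**Figure D3:**
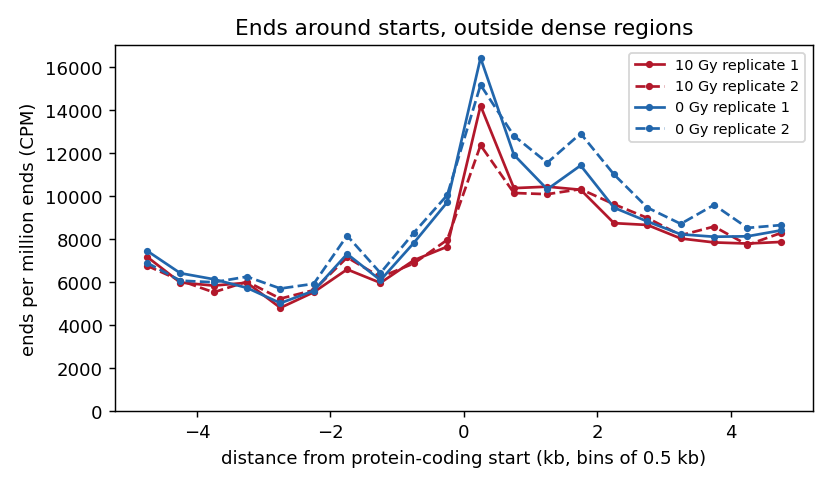
Break ends in CPM by distance from protein-coding starts in bins of 0.5 kb, outside dense regions, 1 line per library (red, 10 Gy; blue, 0 Gy; solid, replicate 1; dashed, replicate 2). All 4 lines peak in the first bin of the gene, at 14219 and 12381 CPM at 10 Gy and 16443 and 15185 at 0 Gy.

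Exons took a smaller share at 10 Gy as well. Over all ends it was 11.1% and 11.2% at 10 Gy, against 14.1% and 13.9% at 0 Gy, and the groups did not overlap (difference -2.80 percentage points, exact permutation p = 0.333). The ribosomal RNA genes of chromosome 17 are annotated as exons of long noncoding genes, and outside dense regions the shares were 10.1% and 11.2% at 10 Gy and 10.7% and 12.7% at 0 Gy, lower in both numbers with groups that overlapped. Introns took 37.1% and 42.1% at 10 Gy and 37.1% and 41.8% at 0 Gy. There the replicate numbers stood about 5 percentage points apart and the doses 0.168. Sequence outside genes took 33.3% and 33.3% of all ends at 10 Gy, against 33.6% and 32.3% at 0 Gy, lower at 10 Gy in replicate 1 and higher in replicate 2 (exact permutation p = 1). Outside dense regions its shares were 40.7% and 37.5% at 10 Gy, against 39.6% and 35.2% at 0 Gy, higher at 10 Gy in both numbers with groups that overlapped.

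The share of ends followed gene number along the chromosomes. Outside dense regions, 100 kb windows without any annotated gene held 10.7% and 9.68% of ends at 10 Gy, against 10.3% and 8.86% at 0 Gy, a log2 ratio of 0.06 in replicate 1 and 0.13 in replicate 2. Windows with 1 gene had log2 ratios of 0.05 and 0.07, and windows with 2 or 3 genes 0.02 and 0.03. Those with 4 to 6 genes had -0.04 and -0.05, and those with 7 to 10 genes -0.11 and -0.14. The 286 windows with 11 genes or more held 4.01% and 4.33% at 10 Gy, against 4.35% and 5.23% at 0 Gy, log2 ratios of -0.12 and -0.27. The order over the 6 classes was the same in both numbers. The differences between doses were smaller than those between replicate numbers in the classes with 0, 1 and 4 to 6 genes, and the exact permutation p was 0.333 or 0.667 in each.

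**Figure D4:**
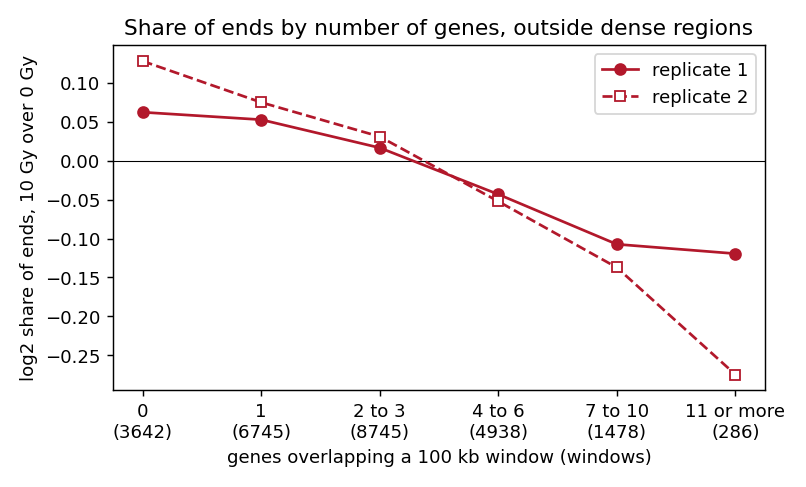
Log2 ratio of the share of break ends, 10 Gy over 0 Gy, for 100 kb windows grouped by the number of annotated genes that overlap them, outside dense regions (filled circles, replicate 1; open squares, replicate 2; number of windows in brackets). The ratio is 0.06 and 0.13 in windows without a gene and -0.12 and -0.27 in windows with 11 or more.

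Windows of 1 Mb with at least 20 protein-coding starts, 288 of 2651, held 13.1% and 14.9% of all ends at 10 Gy, against 13.96% and 16.1% at 0 Gy (difference -0.992 percentage points, exact permutation p = 0.667). Windows of 100 kb without a gene, 3642 of 25834, held 7.94% and 7.90% of all ends at 10 Gy, against 7.52% and 6.96% at 0 Gy (difference +0.686, exact permutation p = 0.333). In the gene-free windows the groups did not overlap. Genes ranked by their density of ends in the shHMGB1 libraries showed a like order in replicate 2 only. Among the 860 genes of lowest density, of 8600, the log2 ratio of the share was -0.01 and 0.16, and among the 860 of highest density -0.07 and -0.30.

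Single genes were tested with edgeR's quasi-likelihood test after scaling the libraries to each other, so these values are changes relative to the bulk of genes and not to the total. Of 12848 genes, 1 passed at a Benjamini-Hochberg adjusted p under 0.05, the mitochondrial translation factor gene Taco1, and it fell (0.00778% of genes tested; 0.0% rose). At an unadjusted p under 0.05 there were 660 genes, 5.14%, and DESeq2 called 0 and had 369 at that level. Genes whose 10 Gy libraries both lay under both 0 Gy libraries in CPM were 15.3% of those tested, and genes whose 10 Gy libraries both lay above them 17.9%.

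Taco1 encodes the activator of translation of mitochondrial cytochrome c oxidase subunit 1 and lies at chr11:106066061-106073612 (mm10). It had 49 and 32 ends at 10 Gy, against 74 and 56 at 0 Gy, fewer in number although the 10 Gy libraries were larger. In CPM these were 47.6 ± 19.2 at 10 Gy and 146 ± 21.5 at 0 Gy (SD, n = 2 each), a log2 change of -1.63 ± 0.32 (SE; edgeR adjusted p = 0.0326). The ends lie at 16 positions, and 47.4% of them at 1 position, 106066776, in an intron 715 bases from the start. That position alone held 14 and 11 ends at 10 Gy, against 41 and 34 at 0 Gy. The call ended in 11 of 17 other settings, with a log2 change of -0.74 (adjusted p = 0.993, edgeR) when each position was counted once. Without the 10 Gy library of replicate 2 the adjusted p was 0.933, and without the 0 Gy libraries of replicates 1 and 2 it was 0.341 and 0.0586.

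The genes next in order did not pass, each with an edgeR adjusted p of 0.927, and are given as values. Among those with more ends at 10 Gy were Clvs1, which encodes a lipid-binding protein of clathrin-coated vesicles, with 60 and 24 ends at 10 Gy, against 8 and 6 at 0 Gy (log2 1.64). Rev1, whose product copies past damaged bases, had 46 and 42 ends at 10 Gy, against 9 and 8 at 0 Gy (log2 1.40). Smad2, a carrier of TGF-beta signals, had 35 and 34 ends at 10 Gy, against 6 and 5 at 0 Gy (log2 1.67). These ends were spread over the genes, with at most 6.12% at any single position. In all 3 genes the groups did not overlap, a separation that the choice by smallest p favours. The membrane ubiquitin ligase gene March3 had 36 and 48 ends at 10 Gy, against 9 and 7 at 0 Gy, and Khdrbs3, of an RNA-binding protein, 30 and 44 at 10 Gy, against 12 and 1 at 0 Gy. The phospholipase D family gene Pld5 had 62 and 71 ends at 10 Gy, against 22 and 9 at 0 Gy. The collagen gene Col19a1 had 74 and 71 at 10 Gy, against 23 and 13 at 0 Gy, and the protein kinase gene Pkn2 33 and 62 at 10 Gy, against 9 and 11 at 0 Gy. Fitted log2 values of these 5 ran from 1.05 to 1.53. Single libraries moved some of these values: Clvs1 was at 0.71 without the 10 Gy library of replicate 1, and without the 0 Gy libraries of replicates 1 and 2 Khdrbs3 was at 4.11 and 0.72 and Pld5 at 1.88 and 0.70.

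Among those with lower values at 10 Gy, Timd2, of a family of cell surface receptors, had 47 and 32 ends at 10 Gy, against 66 and 30 at 0 Gy (log2 -1.22). A single position took 45.1% of its ends, with 24 and 7 of them at 10 Gy, against 39 and 9 at 0 Gy. Slx4, the scaffold of nucleases that cut branched DNA, had 23 and 19 ends at 10 Gy, against 32 and 22 at 0 Gy (log2 -1.31). The transcription factor gene Gtf2i had 7 and 29 at 10 Gy, against 16 and 31 at 0 Gy, and 14 of the last 31 were at 1 position that was empty in the other libraries compared. Dnm2, of the dynamin that pinches off vesicles, had 29 and 36 at 10 Gy, against 25 and 44 at 0 Gy. The remaining genes were Pcolce, of an enhancer of collagen processing, Pdgfrb, of a growth factor receptor, and Dlg4, of a postsynaptic scaffold. Pcolce had 12 and 24 ends at 10 Gy, against 32 and 17 at 0 Gy. Pdgfrb had 46 and 28 at 10 Gy, against 48 and 33 at 0 Gy. Dlg4 had 17 and 32 at 10 Gy, against 18 and 36 at 0 Gy. After scaling, the groups did not overlap in any of these genes, which the choice by smallest p favours, and none of them passed. Without the 0 Gy library of replicate 1 the log2 value of Timd2 was -0.58 and that of Pcolce -0.92, and without the 0 Gy library of replicate 2 those of Gtf2i, Dnm2 and Dlg4 were -0.75, -0.52 and -0.46. Without the 10 Gy library of replicate 1 Gtf2i was at -0.76, and without that of replicate 2 it was at -2.57 and Pdgfrb at -0.65.

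Nearly all of the 10 densest genes lie in the satellite-like or ribosomal RNA regions. Per kilobase, Gm10800 held 114583 ± 46421 CPM at 10 Gy and 89112 ± 30348 at 0 Gy (SD, n = 2 each; log2 0.36), and Gm10718 8965 ± 2792 at 10 Gy and 7307 ± 2482 at 0 Gy (log2 0.29). Gm10801, Gm10722, Gm11168 and Gm26870, which overlap the satellite-like regions as well, and Gm21738, on chromosome 14 and in no dense region, had log2 values from 0.32 to 0.44. The ribosomal RNA genes lay on the other side, with AY036118 at 7363 ± 889 CPM per kb at 10 Gy and 9032 ± 1047 at 0 Gy (log2 -0.29), Gm42418 at log2 -0.36 and Gm26917 at log2 -1.13. None of the 10 passed, the lowest edgeR adjusted p being 0.956, and reads of such copies cannot be assigned to 1 gene.

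No member of any gene list passed the test, so the lists are described by direction and median, beside a median of 0.02 and 48.7% of genes lower over all genes tested. Of the 79 ribosomal protein genes, 45 could be tested, and 36 of these were lower at 10 Gy and 9 higher, with a median log2 change of -0.42. Their groups did not overlap, with 10 Gy lower, in 19 genes or 42.2%, against 15.3% of all genes tested. Summed over all 79 members the list held 5638 and 7001 CPM at 10 Gy, against 7082 and 10986 at 0 Gy. In each replicate number the 10 Gy library was lower, but the groups overlapped.

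Rpl3 and Rpl13a, of the large subunit of the ribosome, held many of the ends of the list. Rpl3 had 694 and 873 ends at 10 Gy, against 550 and 676 at 0 Gy (log2 -0.63 ± 0.31, SE). Rpl13a had 610 and 1028 ends at 10 Gy, against 369 and 730 at 0 Gy (log2 -0.43 ± 0.35). Many of these ends lie in the small nucleolar RNA genes inside the introns, and 77.0% of the ends of Rpl3 sat on 1 position. With each position counted once, 33 of 42 members were lower, with a median log2 change of -0.45.

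Host genes of small nucleolar RNAs gave like values, with 19 of 23 tested members lower at 10 Gy, 4 higher and a median log2 change of -0.38. Gas5, a noncoding host of several such RNAs, had 2230 and 2860 ends at 10 Gy, against 1489 and 1899 at 0 Gy (log2 -0.40 ± 0.36). Snhg1 had 1371 and 2026 at 10 Gy, against 1064 and 1518 at 0 Gy (log2 -0.60 ± 0.35), and Snhg6 had 672 and 2164 at 10 Gy, against 583 and 1374 at 0 Gy (log2 -0.51 ± 0.37). The 10 Gy libraries held more ends of these genes by number and fewer relative to the bulk of genes. With each position counted once, 21 of 22 members were lower (median log2 -0.53). The list of highly transcribed genes, which shares Ncl and Hspa8 with the hosts, was split, 11 lower and 9 higher of 20. With each position counted once, 14 of 19 were lower (median log2 -0.11). Malat1, a nuclear noncoding RNA, had 2757 and 4077 ends at 10 Gy, against 1942 and 2154 at 0 Gy (log2 -0.25 ± 0.35).

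Very long genes known as fragile sites stood on the other side, with 21 of 24 higher at 10 Gy, 3 lower and a median log2 change of 0.14. Ptprd, of a receptor phosphatase, had 495 and 467 ends at 10 Gy, against 247 and 151 at 0 Gy (log2 0.32 ± 0.30). Cntnap2, of a neuronal adhesion protein, had 401 and 441 at 10 Gy, against 236 and 166 at 0 Gy (log2 0.10 ± 0.30). Macrod2, of an enzyme that removes ADP-ribose, was lower, with 1700 and 1678 ends at 10 Gy, against 1124 and 1123 at 0 Gy (log2 -0.38 ± 0.35), and 64.0% of its ends sat on 1 position. The list's summed level per length was 0.266 and 0.272 CPM per kb at 10 Gy, against 0.254 and 0.262 at 0 Gy, higher at 10 Gy in both numbers, and the groups did not overlap. With each position counted once, 19 of 24 were higher (median log2 0.16).

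Lists of the damage response showed no common direction. Of 35 genes of double-strand break repair, 26 were tested, with 15 lower and 11 higher and a median log2 change of -0.17. Xrcc4, a partner of the ligase of end joining, had 129 and 133 ends at 10 Gy, against 80 and 66 at 0 Gy, and Prkdc, the kinase that binds broken ends, 75 and 97 at 10 Gy, against 31 and 47 at 0 Gy. Of 30 p53 target genes, 17 were tested, with 12 lower and 5 higher (median -0.21), and their summed level was lower at 10 Gy in replicate 1 and higher in replicate 2. Immediate early genes, which growth factors and stress induce, had 10 of 23 members tested, 4 lower and 6 higher. Dusp1, a phosphatase gene of that list, had 118 and 110 ends at 10 Gy, against 84 and 87 at 0 Gy, with 85.0% of them on 1 position.

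Break ends do not measure transcripts, so lists of cell type markers describe ends in those genes and cannot test the identity of the line. Genes of matrix and fibroblasts, which mesothelioma cells of fibrous form also use, had 17 of 25 tested members higher at 10 Gy and 8 lower (median 0.11), but 9 of 23 higher with each position counted once (median -0.04). Thbs1, of the matrix protein thrombospondin 1, had 392 and 599 ends at 10 Gy, against 167 and 210 at 0 Gy, and Fn1, of fibronectin, 469 and 798 at 10 Gy, against 208 and 359 at 0 Gy. Col1a1, of collagen I, had 364 and 488 at 10 Gy, against 275 and 196 at 0 Gy. Per length the matrix genes held 2.37 and 3.14 CPM per kb at 10 Gy and 2.31 and 2.85 at 0 Gy. Mesothelial genes held 0.375 and 0.513 CPM per kb at 10 Gy and 0.343 and 0.429 at 0 Gy, with no end in Krt18. Neuronal genes held 0.212 and 0.225 CPM per kb at 10 Gy and 0.229 and 0.205 at 0 Gy.

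Blood cell genes held 0.220 and 0.171 CPM per kb at 10 Gy and 0.240 and 0.101 at 0 Gy, and 6 of 23, the globin genes Hba-a1, Hba-a2, Hbb-bs and Hbb-bt and the leukocyte genes S100a8 and Nkg7, had no end in these libraries. Genes that this cell type is not known to use thus held ends too, at a level near that of long genes. Olfactory receptor genes, used by neurons of the nose, held 0.255 and 0.271 CPM per kb at 10 Gy, against 0.237 and 0.203 at 0 Gy, with only 10 of 1093 members tested. Vomeronasal receptor genes held 0.219 and 0.206 CPM per kb at 10 Gy and 0.216 and 0.150 at 0 Gy, with 39 higher and 30 lower of 69 tested. The summed level of olfactory receptor genes was higher at 10 Gy without overlap, while 7 of the 10 tested were lower and 3 higher, with a median log2 change of -0.24, and none passed. The summed levels of vomeronasal receptor genes overlapped between the groups. None of the 67 histone genes had enough ends to be tested.

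**Figure D5:**
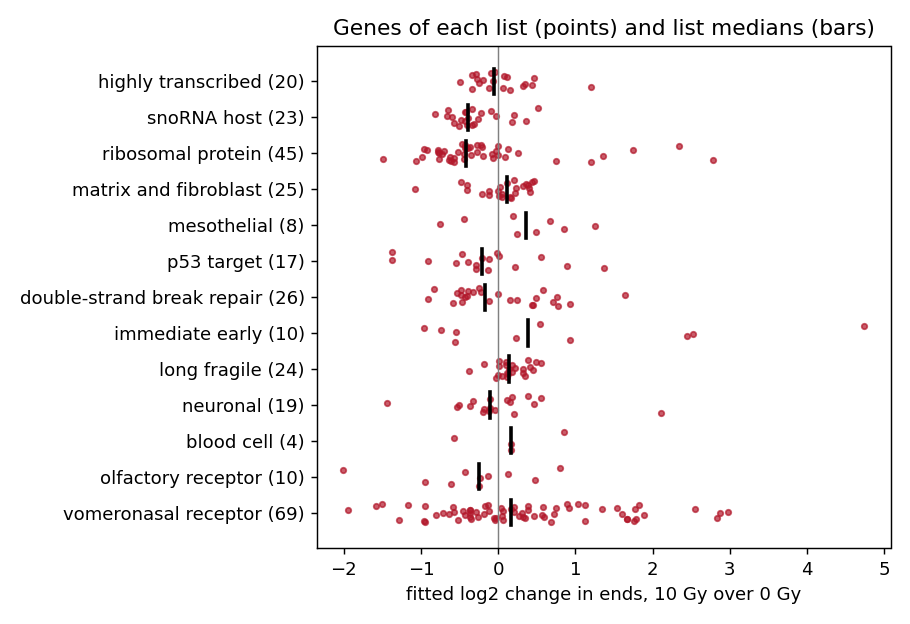
Fitted log2 change of break ends, 10 Gy over 0 Gy, for each tested gene of each list (points, number of genes in brackets) and the list medians (black bars). The medians of the ribosomal protein and snoRNA host lists are -0.42 and -0.38 and that of long fragile genes is 0.14; points beyond 2 belong to genes with few ends, whose fitted values depend on the small constant added to their counts.

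Promoters, taken as 1 kb on each side of protein-coding starts, gave 0 of 398 past the edgeR test (0.0% in each direction), with 23 at an unadjusted p under 0.05, 5.78%, and 0 under DESeq2. Scaling by the ends in promoters recentred them, with a median log2 change of 0.03, against -0.45 at the library totals, so the values that follow are relative to other promoters. The promoter of Thbs1, of a matrix protein, had 31 and 50 ends at 10 Gy, against 15 and 13 at 0 Gy (log2 1.04 ± 0.46), that of Fn1, of fibronectin, 32 and 30, against 9 and 11 at 0 Gy (log2 1.15 ± 0.53), and that of Hspa5, of the chaperone BiP, 38 and 45, against 18 and 9 at 0 Gy (log2 1.13 ± 0.55), each with an edgeR adjusted p of 0.699. The groups did not overlap in any of the 3, a separation that the choice by smallest p favours. Actn4, of an actin crosslinker, had 43 and 21 ends at 10 Gy, against 16 and 8 at 0 Gy (log2 0.94 ± 0.56). Without the 0 Gy library of replicate 1 Hspa5 was at 1.84 and Actn4 at 1.66, and without the 10 Gy library of replicate 1 Actn4 was at 0.51.

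Several promoters had their fullest position in another gene or at a single base. The promoter of Ccdc107 had 122 and 152 ends at 10 Gy, against 62 and 61 at 0 Gy. Its fullest position, with only 9.07% of them, lies in Rmrp, the RNA of a ribonuclease that processes ribosomal RNA. The promoter of Acaa2 had 123 and 174 ends at 10 Gy, against 90 and 63 at 0 Gy, with 12.9% of them at the fullest position, in Scarna17. Those of Rps3, Rpl6, Rpl23a and Slc3a2 had their fullest positions in Snord15a, Gm26205, Snord42b and Gm25894, all small RNA genes. These positions held 23.5%, 18.6%, 29.7% and 51.6% of the ends, and those of Rps3, Rpl6 and Rpl23a also lie within the named genes. The promoter of Hyou1, of a chaperone of the endoplasmic reticulum, had 75 and 75 ends at 10 Gy, against 38 and 40 at 0 Gy, with 96.9% of them at 1 position, -484 bases from the start.

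Lower values at 10 Gy were those of the promoters of Taco1, with 50 and 31 ends at 10 Gy, against 74 and 56 at 0 Gy (log2 -1.15 ± 0.39), and of Pdzd8, of a protein that tethers the endoplasmic reticulum to other membranes, with 17 and 21 ends at 10 Gy, against 50 and 18 at 0 Gy (log2 -1.32 ± 0.54). Both had an edgeR adjusted p of 0.699, and without the 0 Gy library of replicate 1 the log2 value of Pdzd8 was -0.27. The promoter of Pdzd8 is printed because 91.5% of its ends fell on 1 base, marked by the capital, at -41 bases from the start. The sequence is that of RefSeq for GRCm38.p6, at chr19:59345731-59346030 on the minus strand, and only 19.7% of it is A or T.
Pdzd8 promoter: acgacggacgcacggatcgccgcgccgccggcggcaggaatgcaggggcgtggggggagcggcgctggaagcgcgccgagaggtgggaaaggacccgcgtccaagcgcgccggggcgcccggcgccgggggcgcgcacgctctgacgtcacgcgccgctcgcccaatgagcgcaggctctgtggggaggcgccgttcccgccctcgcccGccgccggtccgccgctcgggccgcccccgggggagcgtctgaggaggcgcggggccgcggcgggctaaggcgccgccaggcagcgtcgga
The marked base, 210 from the 5′ end, held 16 and 18 ends at 10 Gy, against 47 and 16 at 0 Gy, so the 0 Gy library of replicate 1 stood apart from the other 3. Bmp7, of a secreted growth factor, had 223 and 49 ends at 10 Gy, against 238 and 78 at 0 Gy, with 99.5% of them at the base -11 from the start. The difference between replicate numbers there was far larger than that between doses.

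Windows of 1 Mb gave 0 of 2578 past the edgeR test (0.0% in each direction), with 128 at an unadjusted p under 0.05, 4.97%, and 0 under DESeq2. The window with the smallest p covered chrX:87000001-88000000, within Il1rapl1, a very long gene of a synaptic receptor. It had 200 and 150 ends at 10 Gy, against 191 and 117 at 0 Gy (log2 -0.84 ± 0.20, edgeR adjusted p = 0.377), and 19.1% of them sat on 1 position. Other windows with lower values lay on chromosomes X, 14, 8 and 9, with log2 values from -0.57 to -0.48 and an adjusted p of 0.895, and 1.19% to 11.8% of their ends sat on 1 position. That of chromosome 8, from 13000001 to 14000000 with Rasa3, Tfdp1 and Mcf2l, had 262 and 278 ends at 10 Gy, against 176 and 210 at 0 Gy.

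On chromosome 2, the neighbouring windows from 66000001 to 67000000 and from 67000001 to 68000000, with the sodium channel genes Scn9a and Scn1a in the first, had 230 and 181 ends and 215 and 243 ends at 10 Gy, against 77 and 52 and 79 and 66 at 0 Gy (log2 0.64 ± 0.19 and 0.61 ± 0.18). On chromosome 15, from 63000001 to 64000000 around Fam49b, there were 315 and 309 ends at 10 Gy, against 117 and 81 at 0 Gy (log2 0.62 ± 0.18). At most 3.04% of the ends of these 3 windows sat on 1 position. The windows at chr10:39000001-40000000, with Fyn and Rev3l, and chr1:38000001-39000000, with Aff3 and Rev1, had log2 values of 0.54 and 0.50. None of the 5 passed, each with an edgeR adjusted p of 0.895.

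Of the gene-free windows, the 3 with most ends held pile-ups. That at chr2:145000001-145100000 had 474 and 348 ends at 10 Gy, against 337 and 281 at 0 Gy, with 90.3% of them at 1 position. That at chr4:24300001-24400000 had 298 and 313 ends at 10 Gy, against 224 and 293 at 0 Gy, and that at chr2:47700001-47800000 had 306 and 308, against 228 and 216 at 0 Gy, with 84.6% and 92.6% of them at 1 position. All 3 gained less than the libraries did. Their fullest positions are among the 148 pile-up positions above, so these are the same ends and not a further observation.

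The response to 10 Gy was also set against that of the shHMGB1 line by an interaction term in the same edgeR fits. Of 12848 genes, 398 promoters and 2578 windows, 0 passed, with 440, 9 and 49 at an unadjusted p under 0.05. A difference between the lines was thus not detectable at this depth, which does not show that they responded alike.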

How the data were processed

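BLISS libraries of shCTRL cells at 10 Gy and 0 Gy, 2 each, were compared, and the other 12 libraries served to define positions and to estimate the spread. Per the submitters' processing notes, the tools were bedtools, UMI-tools, SAMtools, BWA 0.7.5-r404 and Trimmomatic 0.32 and the build mm10, with order and settings not given in the sources used here. The authors deposited, per cluster, the position of each end left after removal of duplicates and a raw count, not normalised and without strand. The 4 libraries held 867721 and 852250 ends at 10 Gy and 489103 and 394618 at 0 Gy; intervals would cover counting error only and are not given. Pile-ups beyond 1 end per position depend on that removal of duplicates.

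Ends on main chromosomes were placed at their own positions and counted in GENCODE M21 genes (21938 protein-coding and 10155 long noncoding), in 1 kb on each side of protein-coding starts and in 1 Mb windows. Gene-free windows overlap no annotated gene of any class. Region shares put each end first near a start, then in exon, intron or intergenic sequence. edgeR 4.0.16 (R 4.3.3; glmQLFit and glmQLFTest, TMM, filterByExpr, Benjamini-Hochberg) was fitted on 8 group means over 16 libraries, since 2 against 2 leave little to estimate the spread. Totals and shares were compared by exact two-sided permutation over 2 against 2 libraries. Dense regions were set with all 16 libraries, pile-ups and densities of genes without the 4 compared. Ratios of ends and log2 ratios of shares were computed within replicate number, and fitted log2 changes between group means. Alternatives were DESeq2 1.42.0, other scalings, no filter, each position once, at most 3 ends per position, ends outside dense regions, thinning, fewer libraries, replicate blocks, other window sizes and each library left out. Shares outside dense regions with each position once were added after seeing the data. Scripts were tested on simulated data (Python 3.11.15, numpy 2.4.6, pandas 2.3.3, scipy 1.17.1).

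The comparison, the lists and the rules were chosen with earlier results of these data known. Named genes were those past the test, filled to 8 in each direction by p among genes with a mean of at least 20 ends and the same sign in both numbers, leaving out predicted genes; the 10 densest genes; the 3 members of each list with most ends; 8 promoters and 5 windows in each direction; and the 3 fullest gene-free windows. Slc36a1, Fam163b, Cdhr2, Exoc6b, Trpc7, single dense regions and the small nucleolar RNA genes printed were chosen after their values were seen. One gene chosen by these rules is not reported here. Of 15 named promoters, 8 matched the RefSeq promoter table.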

Additional observations from a re-analysis of the deposited data

How the results depend on the processing

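The 1 gene called became 0 under the DESeq2 test, no filter on low counts, library totals without TMM, each position once, at most 3 ends per position, thinning, only the 4 libraries compared and only the 8 shCTRL libraries. Leaving out each library gave 0 to 1. Replicate numbers only name the libraries here, with 2 pairs and a correlation of same-numbered deviations of 0.0310 over genes, 0.134 over promoters and 0.283 over windows. With the number as a block, 1 gene, 0 promoters and 0 windows were called. With that block within each line, 3 genes (1 up, 2 down), 1 promoter (up) and 3 windows (down) were called.

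Shares in percentage points reversed as follows. The share near starts (2.25) was -0.651 with each position once in thinned libraries, -1.14 with at most 3 ends per position, -0.646 outside dense regions and -0.568 with both, and -0.285 to 4.77 with each library left out. Introns (0.168) gave -0.160 with each position once, -0.0155 outside dense regions and -0.379 with both, and -2.30 to 2.64 with libraries left out. With libraries left out, intergenic sequence ran from -0.265 to 1.04, dense regions from -5.74 to 1.75, reaching 0.635 without 0 Gy replicate 1 and the upper value without 10 Gy replicate 2, and gene-dense windows from -2.04 to 0.0587. The cause was not tested.

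Among promoters, none of them called, the log2 value of Hyou1 was -0.031 at library totals and -0.83 with at most 3 ends per position, and that of Rps3 -0.0044 under DESeq2's test and size factors and -0.31 at library totals. Without the filter, Slc3a2 gave 0.11, Rpl6 0.082, Fam83f 0.11 and Rpl23a 0.25 (0.30 thinned). With each library left out, Bmp7 ran from -1.97 to 0.50, Slc3a2 from -0.33 to 0.045, Rpl6 from -0.53 to 0.27 and Rpl23a from -0.38 to 0.37. Totals, exons, gene-free windows, snoRNA genes and spacing kept their direction in every setting run. The share at soft-masked bases was not run, because no genome sequence was used here. Few ends per promoter limit what could be detected there.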

Other observations

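In the bins next to the ends of protein-coding genes the doses differed less than in those next to their starts. Outside dense regions, the last 500 bases of genes held 9229 and 10442 CPM at 10 Gy, against 9382 and 11406 at 0 Gy. The first 500 bases beyond the gene held 6156 and 6157 CPM at 10 Gy, against 5497 and 6107 at 0 Gy, higher at 10 Gy without overlap. Farther off the difference could be larger, with log2 ratios of -0.12 in replicate 1 and -0.30 in replicate 2 from 4500 to 4000 bases before the end. The level dropped past the gene's end in all 4 libraries.

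Chromosomes 19 and 7, which are rich in genes, held slightly smaller shares at 10 Gy, and chromosomes 6 and 1 slightly larger ones. Outside dense regions chromosome 19, with 11.7 protein-coding starts per Mb, held 3.58% and 3.799% of ends at 10 Gy, against 3.76% and 3.95% at 0 Gy. Chromosome 7, with 13.9 starts per Mb, held 5.64% and 5.81% at 10 Gy, against 5.84% and 6.04% at 0 Gy. Chromosome 6, with 7.43 starts per Mb, held 5.87% and 5.83% at 10 Gy, against 5.68% and 5.61% at 0 Gy, and chromosome 1, with 6.18, held 8.20% and 8.11% at 10 Gy, against 8.03% and 7.80% at 0 Gy. Chromosomes 10 and 12 departed from that order. Chromosome 10, with 7.82 starts per Mb, held 4.21% and 4.21% at 10 Gy, against 4.36% and 4.32% at 0 Gy. Chromosome 12 had 5.36 starts per Mb and 3.92% and 3.83% at 10 Gy, against 3.93% and 3.85% at 0 Gy. The groups did not overlap for chromosomes 1, 6, 7 and 10 and overlapped for chromosomes 12 and 19.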
